A study of Sus scrofa with 6 samples.

Results

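A set of transcription factor genes that mark the floor of the embryonic midbrain were followed through the culture of porcine midbrain-like organoids (pMLOs): FOXA1, FOXA2, LMX1A, LMX1B, OTX2, EN1 and NR4A2. They were found by their symbols in the gene table, and all 7 members were present among its 30477 genes. The organoids came from a single line of porcine embryonic stem cells derived from an in vitro fertilised embryo, IVF_1_ pESC_FIW. They were cultured first with SB431542, Noggin, SHH and CHIR99021, then with FGF8, to which BDNF and ascorbic acid were added before D11, and for terminal differentiation with BDNF, GDNF, ascorbic acid, db-cAMP and DAPT. Single-cell RNA libraries were made with 10x GEM-X 3' chemistry at 3 ages, days 11, 28 and 45 of culture (D11, D28, D45), and each age had a library A and a library B. The embedding in Matrigel and the terminal medium with GDNF, db-cAMP and DAPT came after D11, so that age, embedding and medium cannot be told apart. Every group thus shared 1 genotype and 1 line, and the study calls the libraries of a day biological duplicates without saying, in the sources used here, whether they came from separate differentiations, so that p-values measure only the spread between these libraries.

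In the embryo, SHH released from the notochord and floor plate induces FOXA2 in ventral midline cells, and in the midbrain these midline cells are neurogenic and give rise to dopaminergic neurons. FOXA1 and FOXA2 are forkhead factors that open closed chromatin and act early in the floor plate and later in dopaminergic neurons. LMX1A and LMX1B are LIM-homeodomain factors that instruct dopaminergic fate, OTX2 gives fore- and midbrain identity to progenitors, EN1 marks the midbrain and anterior hindbrain and maintains dopaminergic neurons, and NR4A2 (NURR1) is a nuclear receptor that switches on the dopamine synthesis and transport genes after the last division. LMX1A and FOXA1 with FOXA2 are also found in neighbouring subthalamic progenitors, LMX1B is found in serotonergic neurons, and LMX1A in the roof plate, so that none of the 7 genes names a dopaminergic cell alone.

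In the Sscrofa11.1 annotation of RefSeq the members lay on 5 chromosomes. FOXA1 (ENSSSCG00000037634) occupied chr7:62471233-62479638 on the plus strand, FOXA2 (ENSSSCG00000007114) chr17:29997397-30001704 on the minus strand and LMX1A (ENSSSCG00000006329) chr4:85403287-85570738 on the plus strand. LMX1B (ENSSSCG00000035968) occupied chr1:267207273-267290862 on the plus strand and OTX2 (ENSSSCG00000005063) chr1:186028575-186039026 on the minus strand. EN1 (ENSSSCG00000015715) lay at chr15:24402605-24408377 and NR4A2 (ENSSSCG00000015871) at chr15:63487051-63506249, both on the minus strand. The 250 bases before the annotated start are shown for the member whose level dropped furthest (FOXA2) and for the one window with a motif match (EN1). They are also shown for the member called higher in cells with the neuron gene STMN2 on both later days (LMX1A). They came from chr17:30001705-30001954 (minus strand), chr4:85403037-85403286 (plus strand) and chr15:24408378-24408627 (minus strand), 5′ to 3′, with the match in capitals.
FOXA2: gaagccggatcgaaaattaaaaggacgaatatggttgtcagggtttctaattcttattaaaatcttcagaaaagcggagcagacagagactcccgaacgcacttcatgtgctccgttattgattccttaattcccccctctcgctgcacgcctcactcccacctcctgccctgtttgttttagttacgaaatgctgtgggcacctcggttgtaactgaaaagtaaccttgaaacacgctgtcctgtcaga
LMX1A: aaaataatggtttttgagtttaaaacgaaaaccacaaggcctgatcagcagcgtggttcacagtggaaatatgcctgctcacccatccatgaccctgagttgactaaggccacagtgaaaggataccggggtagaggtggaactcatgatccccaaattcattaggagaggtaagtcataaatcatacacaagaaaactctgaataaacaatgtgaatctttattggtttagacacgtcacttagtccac
EN1: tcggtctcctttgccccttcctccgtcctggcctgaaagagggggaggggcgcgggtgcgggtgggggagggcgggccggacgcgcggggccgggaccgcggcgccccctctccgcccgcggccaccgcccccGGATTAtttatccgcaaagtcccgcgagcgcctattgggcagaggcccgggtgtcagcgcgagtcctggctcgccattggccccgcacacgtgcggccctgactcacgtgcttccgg
Both strands were searched for the letters TGTTTAC (forkhead), TAATTA (homeodomain), TAATCC (OTX) and AAAGGTCA (NR4A), which occurred in 2.28%, 3.75%, 5.41% and 0.838% of 19569 such windows. The EN1 window held 1 OTX match and the windows of the other 6 members held none, which says only that these letters were not in these bases. Base composition split the members: the windows of FOXA2, LMX1A and NR4A2 had 46.4%, 41.6% and 41.6% G or C, below the median of 57.6% over all windows, and those of FOXA1, OTX2, EN1 and LMX1B had 69.2%, 66.4%, 74.0% and 80.0%, above it.

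The 6 libraries held 103519 cells after filtering, of 104820 deposited barcodes, with 13954 to 21615 cells and 106851387 to 180098372 unique molecular identifiers (UMIs, each standing for 1 captured RNA molecule) per library. Depth fell with age: median UMIs per cell were 10741 and 8821 at D11, 5499.5 and 8095 at D28, and 2240 and 4242 at D45, and from 11.5% to 48.3% of the cells of a library had fewer than 2000 UMIs. Any pair of libraries shared 54 to 111 barcodes over the 15 pairs. The D45 library A stood apart by its low depth, and the D28 libraries were the least alike pair, with a median absolute log2 difference per gene of 0.487 against 0.169 on D11 and 0.214 on D45. They also differed in make-up, since libraries A and B of D28 held 1351 and 138 fibroblast-like cells, 33 and 580 GABAergic-like cells, and 2592 and 1169 neurons gated on a marker list with SLC17A6; the part of this in the D28 levels of the members was not tested. Results that changed without 1 of these libraries are given without it. The labels call the cells midbrain dopaminergic neurons, but 1117 cells (1.08% of all kept cells) met the marker rule for dopaminergic-like neurons, and 19833 cells (19.2%) met that for floor plate-like cells. The 1117 include 117 and 121 cells of D11, which are named by their gate below. A further 37075 cells (35.8%) met no rule, with a median of 827 UMIs, so that shallow cells can be missed by these rules.

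FOXA2, the regulator of floor plate fate, dropped the furthest of the members. In whole libraries it stood at 89.98 and 101 counts per 1000000 UMIs (CPM) in the D11 libraries A and B, at 24.4 and 34.4 CPM on D28 and at 4.93 and 4.56 CPM on D45. Every step was larger than the gap between the 2 libraries of a day, and no libraries of different days overlapped. The means were 95.6 ± 7.88, 29.4 ± 7.02 and 4.74 ± 0.260 CPM (SD, n = 2). The log2 fold change was -1.98 (SE 0.17) between D11 and D28, with an adjusted p of 0.00103 in the quasi-likelihood test of edgeR, adjusted by Benjamini-Hochberg over 22197 genes. It was -4.74 between D11 and D45 (adjusted p = 0.000105) and -2.77 between D28 and D45 (adjusted p = 0.00246), the last of which missed the threshold of 0.05 without the D45 library A (adjusted p = 0.0588). In summed libraries, fewer cells of a type and less RNA per cell cannot be told apart.

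FOXA1, its close relative, held its level longer. It stood at 193 and 209.9 CPM on D11, 155 and 195 CPM on D28, and 21.7 and 38.7 CPM on D45. The D28 library B lay above the lower D11 library, so that these days overlapped, whereas both D45 libraries lay far below. Between D11 and D28 the log2 fold change was -0.47 (adjusted p = 0.281), and between D28 and D45 FOXA1 fell by 2.67 on the log2 scale (adjusted p = 0.00839, and 0.0612 without the D45 library A). Over the whole course it fell by 3.14 (adjusted p = 0.000759).

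The LIM-homeodomain pair was not called between D11 and D28. LMX1A was measured at 88.5 and 98.2 CPM on D11, 114 and 70.3 CPM on D28, and 24.2 and 42.3 CPM on D45. LMX1B was measured at 14.4 and 14.9 CPM on D11, 14.7 and 16.6 CPM on D28, and 4.56 and 8.62 CPM on D45. For both genes the D28 libraries overlapped or neighboured those of D11 and the D45 libraries lay below both. The D28 changes were -0.25 and -0.17 on the log2 scale (adjusted p = 0.671 and 0.733). From D11 to D45 LMX1A fell by 1.89 and LMX1B by 1.55 (adjusted p = 0.0104 and 0.0106). These calls were lost for LMX1A without the D11 library B (0.0623) or the D45 library A (0.0758), and for LMX1B without either D11 library (0.0533 and 0.0732). Between D28 and D45 both passed narrowly (log2 fold changes -1.64 and -1.38, adjusted p = 0.0448 and 0.0428), and each of these calls was lost in 6 of 14 alternatives, including the removal of any 1 of the D11 or D45 libraries.

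OTX2, the fore- and midbrain identity factor, fell early. It stood at 58.8 and 47.1 CPM on D11, 19.97 and 18.9 CPM on D28, and 12.5 and 19.0 CPM on D45. Both D11 libraries exceeded all later ones, and the D28 and D45 libraries overlapped. The change to D28 was -1.70 (SE 0.26; adjusted p = 0.00595, and 0.0554 without the D11 library A), and that from D28 to D45 was -0.45 (adjusted p = 0.271). OTX2 and FOXA2 were the 2 members called between D11 and D28 with all libraries; NR4A2 joined them without the D28 library A (log2 fold change -1.06, adjusted p = 0.00667).

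EN1 and NR4A2, the genes tied to the maintenance and maturation of dopaminergic neurons, were lower on D45 than on D11. EN1 stood at 35.8 and 52.3 CPM on D11, 54.0 and 31.1 CPM on D28, and 6.25 and 20.2 CPM on D45. NR4A2 stood at 75.8 and 85.6 CPM on D11, 79.2 and 50.2 CPM on D28, and 42.3 and 55.4 CPM on D45. For EN1 the D45 libraries lay below the rest but were far from each other, and for NR4A2 the D28 and D45 libraries overlapped. From D11 to D45 EN1 fell by 2.13 (adjusted p = 0.0315) and NR4A2 by 1.13 (adjusted p = 0.0310). EN1 lost this call without either D11 library or the D45 library A (log2 fold changes -2.36, -1.73 and -1.51). It also lost it with all deposited barcodes (-1.98, adjusted p = 0.0535). NR4A2 lost its call without any 1 of the D11 or D45 libraries (-0.92 to -1.39). Between D28 and D45 the changes were -1.85 and -0.58 (adjusted p = 0.0902 and 0.247), and both passed without the D28 library B (0.00793 and 0.00534), and EN1 also by DESeq2 with all libraries (-1.82, adjusted p = 0.0113).

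**Figure D1:**
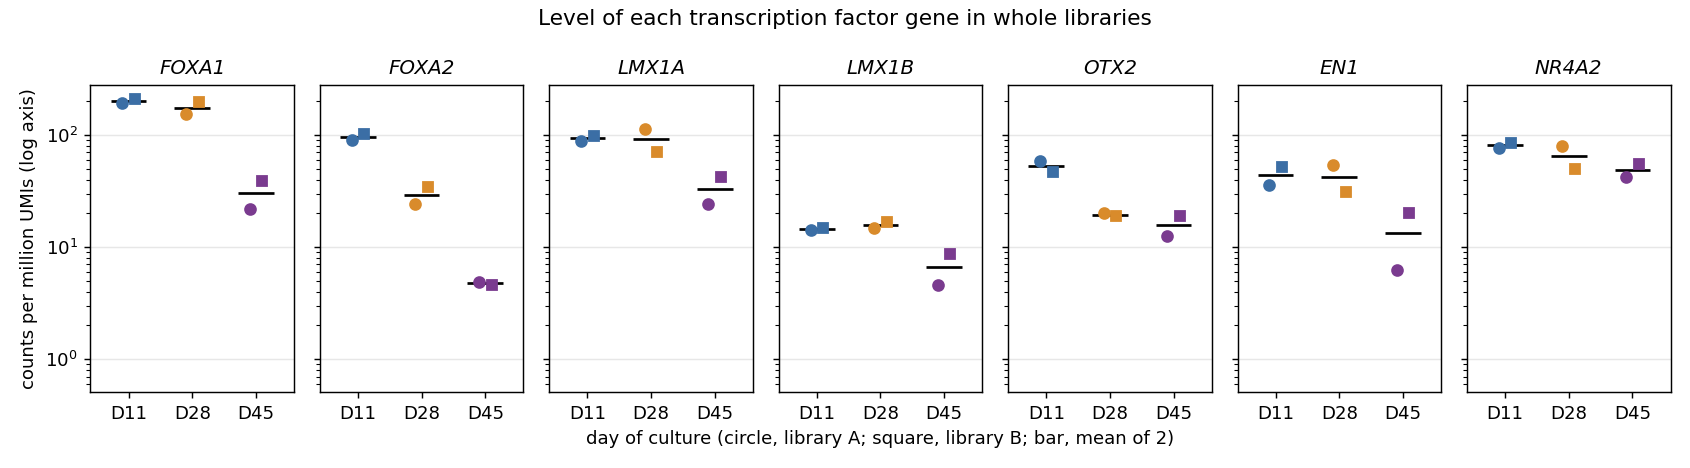
Level of each member in CPM (log axis) in the 6 whole libraries by day of culture; circles are library A, squares library B and bars the mean of 2. FOXA2 stepped down on each day to 4.74 CPM on average, FOXA1 stayed between 155 and 209.9 CPM on D11 and D28 before dropping, and all 7 members had their lowest mean on D45.

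Across the 7 members, 0 were called higher and 2 lower on D28 than on D11, where 12.5% of all tested genes were called higher and 10.6% lower. On D45 against D11, 0 were higher and 7 lower, against 17.3% and 17.4% of all genes. On D45 against D28, 0 were higher and 4 lower, against 4.51% and 4.95%. The median log2 fold change of the members was -0.47, -2.13 and -1.64 in these 3 comparisons, and that of all tested genes 0.03, -0.01 and -0.03. The 3 comparisons share libraries and are not independent of each other.

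Other genes of the floor plate were counted next, beside the same shares of all genes. Of 8 floor plate and SHH pathway genes tested, 5 were lower and 0 higher on D28 than on D11 (10.6% of all genes lower), and 7 were lower and 0 higher on D45 (17.4% lower). SHH itself, the inducing signal, fell by 2.50 to D28, and GLI1, a transcriptional target of SHH, by 1.70. CORIN and SPON1, surface and matrix proteins of floor plate cells, fell by 3.88 and 3.65 from D11 to D45. Of 6 midbrain-hindbrain boundary genes tested, 2 were lower on D28, GBX2 (by 4.95), which opposes OTX2 at the boundary, and ETV5 (by 2.50), an FGF target. Of 10 genes of postmitotic dopaminergic neurons, 5 were higher on D28, led by ALDH1A1 (log2 fold change 5.32), a retinoid and dopamine metabolising enzyme, and SLC18A2 (2.49), the vesicular monoamine transporter; 4 were higher on D45 than on D11. Of 5 dopaminergic progenitor genes tested, 0 were called on D28 and 2 were lower on D45, WNT5A (by 1.85) and RSPO2 (by 1.80), both WNT pathway ligands. Of 11 genes of other brain regions, 2 were higher and 4 lower on D28; BARHL1, a subthalamic regulator, rose by 7.36, and DBX1, of lateral progenitors, fell by 2.44. Of 8 roof plate and choroid plexus genes, where LMX1A is also used, 3 were higher and 1 lower on both later days. Among 5 tested paralogs of the members, OTX1 fell with OTX2 (by 1.96 to D28 and 2.33 to D45) and NR4A3 was higher on D45 than on D11 (1.27).

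The share of cells with at least 1 UMI of a member was taken next, with depth moving with the days. FOXA2 was detected in 40.0% and 37.2% of D11 cells, 11.4% and 17.2% of D28 cells and 1.73% and 2.05% of D45 cells. Reduced to 2000 UMIs per cell, with shallower cells left out, the day means were 16.3%, 4.51% and 0.719%. FOXA1 was detected in 51.0% and 48.3%, 41.2% and 38.2%, and 6.28% and 13.2% of cells (29.2%, 22.5% and 4.52% at 2000 UMIs). LMX1A was detected in 22.7% and 23.5%, 31.6% and 17.6%, and 5.63% and 11.5% (12.6%, 14.1% and 4.93%), so that its D28 libraries lay on either side of the D11 ones. At 2000 UMIs, OTX2 went from 8.97% to 3.86% and 2.84%, EN1 from 6.77% to 6.17% and 2.18%, LMX1B from 3.08% to 3.30% and 1.34%, and NR4A2 from 15.3% to 11.0% and 8.60%.

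Free RNA in droplets sets a floor under such shares, which was read in oligodendrocyte-lineage-like cells, a class outside the dopaminergic lineage. On D45 there were 873 and 872 of these cells, with median depths of 12381 and 11308 UMIs. FOXA2 was seen in 0.115% and 0.344% of them, well under its share in all D45 cells despite the greater depth. LMX1A was seen in 2.41% and 4.01%, LMX1B in 0.916% and 1.72%, FOXA1 in 2.41% and 4.82%, and OTX2 in 3.78% and 7.11%, all below the shares in all D45 cells of the same library. EN1 was seen in 2.18% and 8.83%, against 2.43% and 7.60% of all cells, but at a lower depth in all cells; at 2000 UMIs the EN1 share of D45 library B was 1.88% in these cells and 3.35% in all cells, and its level 8.67 and 20.2 CPM. NR4A2 was seen in 31.8% and 32.2%, more than in all cells (16.2% and 22.4%), and this D45 share is not read as expression. At 2000 UMIs its share was 6.82% and 7.15% in these cells and 7.47% and 9.73% in all cells, and its level 34.8 and 39.0 against 42.3 and 55.4 CPM. D28 library B held 148 of these cells, with NR4A2 in 27.7% of them against 28.3% of all its cells, so that this D28 share is not read as expression either. At 2000 UMIs it was 6.65% against 8.96%, and its level 35.0 against 50.2 CPM. The other 6 members were seen in 0.676% to 8.11% of these D28 cells. D28 library A and D11 held none, and no floor was read on D11. Fibroblast-like cells, another class outside that lineage, numbered 1351 and 138 on D28. FOXA1, EN1 and NR4A2 were seen in 51.5%, 28.4% and 35.0% of them (means), against 39.7%, 14.5% and 29.7% of all D28 cells. At 2000 UMIs the shares were 17.3%, 6.44% and 8.09% against 22.5%, 6.17% and 11.0%. FOXA2, LMX1A, LMX1B and OTX2 lay below all cells. On D45 FOXA1 was in 23.1% (5.54% against 4.52% at 2000 UMIs). Whether this was free RNA or expression was not tested.

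To see in which cells the members lay, cells were put into classes by fixed markers that contained none of the 7 genes. These classes are a description, with no test, and 37075 cells (35.8%), with a median of 827 UMIs, fell into none. In floor plate-like cells FOXA2 stood at 145 and 141 CPM at D11, 42.0 and 58.4 CPM at D28, and 43.3 and 21.4 CPM at D45, and its level was lower on the later days within the class too. The number of these cells was 5844 and 7972, 2143 and 3244, and 219 and 411; how much of the fall in whole libraries came from their number was not tested. FOXA1 in the same cells read 347 and 319, 228 and 361, and 166 and 138 CPM, and was higher there than in any other class of 20 or more cells on each day by the mean of 2 libraries (333 ± 19.4, 294 ± 94.0 and 152 ± 19.7 CPM). On D28 that lead was within the spread of the ciliated-like cells, with 256 ± 66.2 CPM in 2 libraries. On D11 only 1 library had 20 or more ciliated-like cells, and their 319.8 CPM lay between the 2 floor plate-like values. LMX1A in floor plate-like cells read 169 and 153 CPM on D11, its highest class on that day, 94.0 and 51.8 on D28, and 68.9 and 62.7 on D45.

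From D28 on, LMX1A was highest in neurons. Dopaminergic-like neurons held 202 and 203.5 CPM on D28 and 108 and 198 CPM on D45. Neurons gated on a list of 4 markers with SLC17A6, BARHL1 and BARHL2 (here SLC17A6-gated neurons, since SLC17A6 was found in 88.1% of these cells on D28, and BARHL1 and BARHL2 in 38.6% and 31.6%) held 184 and 211.5 CPM on D28 and 144 and 182 CPM on D45. Their gate took any 2 of the 4 markers, so that some of these cells had no SLC17A6, and neurons with SLC17A6 but no other marker of the list were not in it. The 2 classes overlapped on both days and cannot be ranked by LMX1A. FOXA1 did not separate them either, with 134 and 151 against 163 and 148 CPM on D28. FOXA2 did not overlap between these 2 neuron classes on D28: dopaminergic-like neurons held 69.7 and 43.7 CPM, and SLC17A6-gated neurons 6.56 and 7.09 CPM. On D45 the FOXA2 levels were 31.0 and 8.50 against 4.55 and 1.05 CPM, in classes of 94 and 332 against 268 and 524 cells. The FOXA2 levels of dopaminergic-like neurons overlapped with those of floor plate-like cells on both days.

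EN1 was highest in dopaminergic-like neurons on D28 and D45 by the mean of the libraries. It stood at 586 and 392 CPM in the 254 and 199 dopaminergic-like cells of D28, against 15.02 and 20.8 CPM in SLC17A6-gated neurons, and 154 CPM in the 120 TPH2/SLC6A4 neurons of D28 library B was the next highest. On D45 the 2 libraries parted, with 41.3 and 209.9 CPM. NR4A2 had the same leading class, at 214 and 199 CPM on D28 and 113 and 164 CPM on D45, where floor plate-like cells came next with 82.3 ± 38.6 and 63.4 ± 9.87 CPM. LMX1B on D28 was highest in TPH2/SLC6A4 neurons, marked by the serotonin synthesis enzyme and transporter, at 113 CPM in 1 library, followed by dopaminergic-like (35.8 and 47.7 CPM) and SLC17A6-gated neurons (26.3 and 41.3 CPM), which overlapped. OTX2 had another distribution: on D11 it was highest in progenitor-like cells (101 and 82.4 CPM) and mitotic-like cells (97.6 and 84.8 CPM) and stood at 33.0 and 32.2 CPM in floor plate-like cells. On D28 dopaminergic-like neurons (38.8 and 47.7 CPM) overlapped with progenitor-like cells (38.3 and 49.3 CPM).

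The dopaminergic-like gate did not hold the same cells on D11. Its 117 and 121 cells carried TH in 90.8% and RET in 88.7%, but PITX3, a factor that defines midbrain dopaminergic neurons, in 0%, against 4.86% on D28, and SLC6A3, the dopamine transporter, in 10.9% against 36.6% on D28 and 16.4% on D45. Of 238 cells, 0 with PITX3 allows a share with a PITX3 UMI of up to 1.26%, which limits detection and not expression, and PITX3 was detected in few cells on D28 and D45 (1.88%) too. The members read 1.63 and 6.54 CPM for FOXA2, 6.11 and 1.64 CPM for LMX1A, 15.5 and 24.9 CPM for EN1 and 29.8 and 31.1 CPM for NR4A2 there. On D11 these cells are therefore called by their gate, TH- and RET-positive neurons. SLC17A6-gated neurons of D11 also differed from those of D28, with 74.8 and 88.2 CPM of FOXA2 and 28.9 and 16.2 CPM of LMX1A, and BARHL1 in 1.23% of them against 38.6% on D28.

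**Figure D2:**
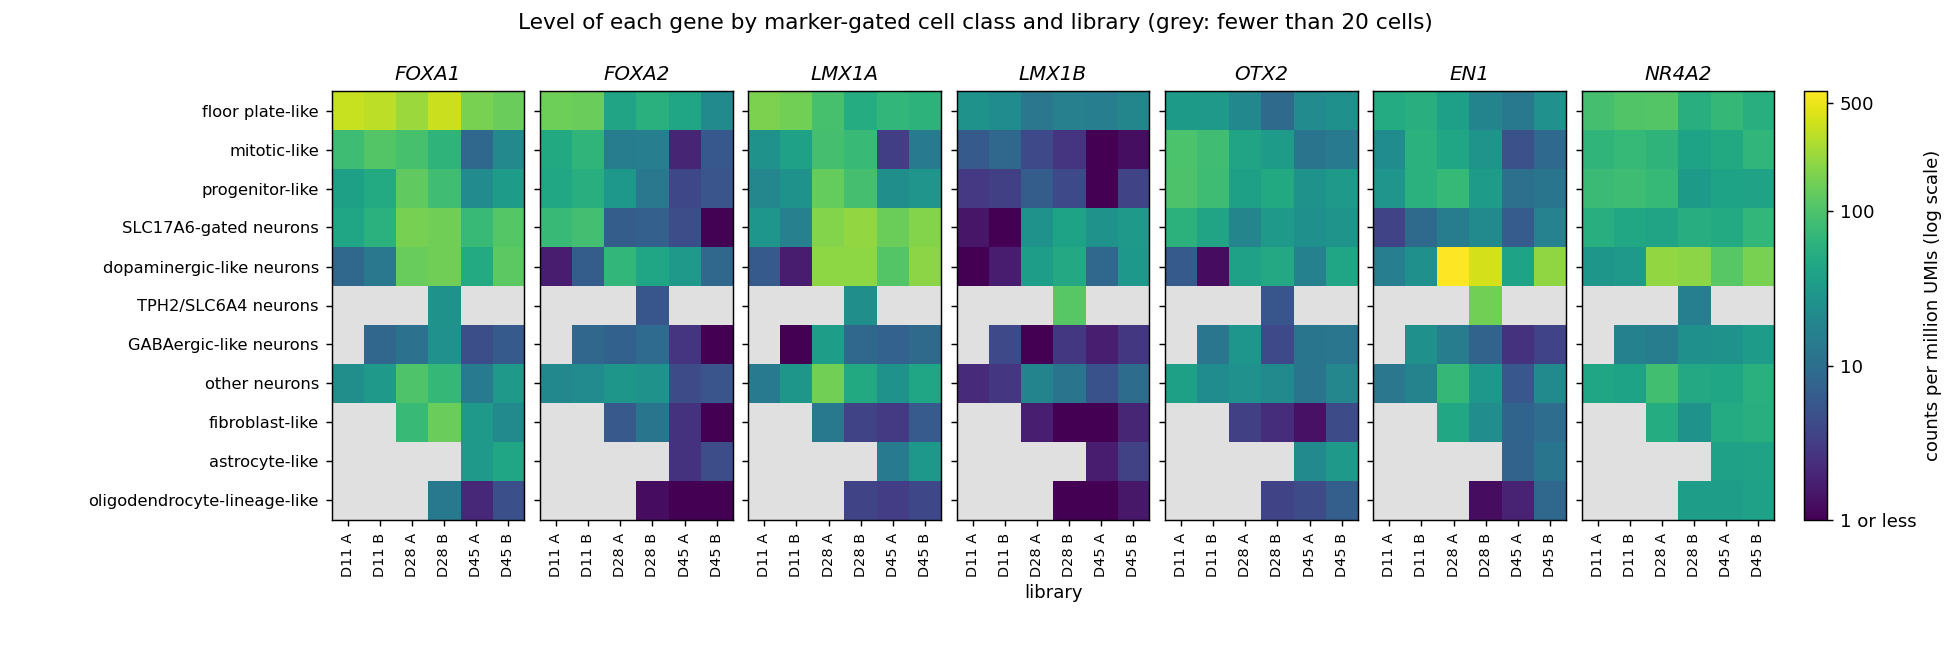
Level of each member (colour, CPM on a log scale) by marker-gated cell class (rows) and library (columns); grey marks fewer than 20 cells. EN1 and NR4A2 were brightest in dopaminergic-like neurons of D28 (586 and 392 CPM of EN1), LMX1A was bright in both these and SLC17A6-gated neurons, and FOXA2 was bright in floor plate-like cells of D11.

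FOXA2 and LMX1A are the pair whose overlap is taken to define the dopaminergic floor plate, and the share of LMX1A-positive cells that also held FOXA2 became smaller with age. It was 55.3% (1850 of 3345 cells) and 52.9% (2684 of 5077) on D11, 18.2% (825 of 4527) and 27.0% (664 of 2455) on D28, and 9.54% (109 of 1142) and 4.36% (93 of 2135) on D45. No libraries of different days overlapped. With FOXA2 read at 2000 UMIs in each LMX1A-positive cell, the cells still being chosen for LMX1A at full depth, the share was 18.04% and 17.9% at D11, 4.80% and 6.90% at D28, and 3.00% and 1.19% at D45, again without overlap. FOXA2 fell in all cells over the same days, and its level in LMX1A-positive against LMX1A-negative cells was 101 against 86.3 and 102 against 101 CPM on D11, 29.5 against 20.4 and 42.7 against 31.8 CPM on D28, and 21.7 against 3.23 and 6.91 against 4.03 CPM on D45. With 2 libraries against 2 an exact two-sided permutation test cannot go below p = 0.333, and none was run. In floor plate-like cells with LMX1A the share was 60.3% and 61.2% on D11, 40.5% and 50.7% on D28, and 53.8% and 16.5% at D45, where the 2 libraries parted. Among LMX1A-positive dopaminergic-like neurons of D28 it was 36.5% (95% exact binomial interval 29.8 to 43.5) and 33.3% (25.3 to 42.2). Among LMX1A-positive SLC17A6-gated neurons of the same libraries it was 4.54% (3.54 to 5.72) and 6.81% (4.76 to 9.39), outside those intervals, at median depths of 8391 and 10358 UMIs against 9817 and 10450. At 2000 UMIs the shares were 11.2% and 10.1% in dopaminergic-like and 1.20% and 1.82% in SLC17A6-gated neurons. On D45 the dopaminergic-like shares of the 2 libraries parted, at 44.0% of 25 cells and 6.53% of 199. Intervals cover counting error only.

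**Figure D3:**
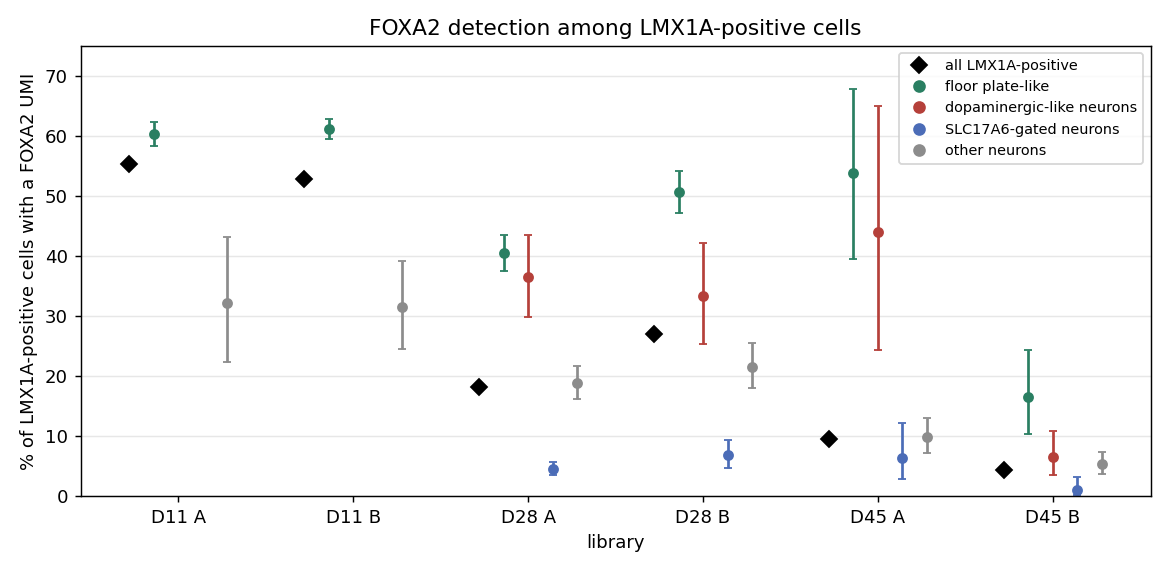
Percent of LMX1A-positive cells with a FOXA2 UMI per library; diamonds are all LMX1A-positive cells, circles are marker classes with exact 95% binomial intervals. All LMX1A-positive cells went from 55.3% and 52.9% on D11 to 9.54% and 4.36% on D45, and SLC17A6-gated neurons lay below dopaminergic-like neurons in each D28 and D45 library.

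Comparing LMX1A-positive cells with and without FOXA2 inside each library, 1662 of 15947 genes were called, 5.08% higher and 5.34% lower. FOXA2 and LMX1A made the groups and are no result, and of the other 5 members 1 was called higher and 0 lower. The 2 sides differed in class: floor plate-like cells made up 50.4% and 63.9% of the cells with FOXA2 and 16.5% and 23.1% of those without it on D28, and SLC17A6-gated neurons 8.24% and 5.12% against 38.6% and 26.0%, and the part of class in the genes called was not tested. FOXA1 was higher with FOXA2 in 6 of 6 libraries (log2 fold change 0.43, SE 0.12, adjusted p = 0.0466), a call that was lost in 9 of 13 alternatives, including the removal of either D11 library, either D28 library or the D45 library B (adjusted p from 0.0509 to 0.142). NR4A2 was also above in 6 of 6 libraries but did not pass (0.52, adjusted p = 0.109), and the changes were -0.45 for LMX1B, -0.26 for OTX2 and 0.23 for EN1 (adjusted p = 0.121, 0.423 and 0.542), of which LMX1B passed without the D11 library B (-0.62, adjusted p = 0.0481). Cells with FOXA2 were deeper in every library (median UMIs 11721 against 10543 in D11 library A, and 18496 against 6388 in D45 library A), and the part of depth was tested only by leaving out shallow or deep cells.

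Among genes of 1 direction in every library, those with the largest lower levels beside FOXA2 were BARHL1 (-3.29) and BARHL2 (-3.04), both factors of subthalamic neurons and markers of the SLC17A6-gated class, DBX1 (-2.29), a progenitor factor of lateral domains, ISL1 (-2.24), of motor and hypothalamic neurons, and PMCH (-2.20), the precursor of melanin-concentrating hormone. The largest rises among genes of 1 direction in every library were of CD36 (1.63), a fatty acid translocase, CHGB (1.29), a granin of secretory granules, NDNF (1.28), a secreted neurotrophic factor, SIDT1 (1.28) and SLA-DQB1 (1.21), a class II histocompatibility gene. BARHL1 averaged 1.66 ± 1.91 CPM with FOXA2 and 18.4 ± 19.7 CPM without it (SD, n = 6), and CD36 147 ± 66.3 and 66.01 ± 50.6 CPM. Of 8 floor plate and SHH genes 5 were higher and 1 lower: CORIN, a floor plate gene, rose by 1.11, and PTCH1, the SHH receptor and target, fell by 0.67. Of 10 tested genes of other regions 7 were lower and 1, NKX2-2, was higher (0.82). Of 9 postmitotic dopaminergic genes 2 were higher, ALDH1A1 (1.48) and DDC (0.65), the aromatic amino acid decarboxylase, and 2 lower, the potassium channel KCNJ6 (-1.10) and the receptor DRD2 (-0.66). The list medians were 0.92 for floor plate and SHH, -1.63 for other regions and 0.50 for dopaminergic genes, and 0.00 for all genes.

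Neurons were then compared with other cells through STMN2, which encodes a microtubule regulator of growing axons. At least 1 STMN2 UMI was found in 26.8% and 33.4% of D11 cells, 74.8% and 69.5% of D28 cells, and 71.9% and 68.4% of D45 cells. The cut was loose, since 17.04% and 25.1% of floor plate-like cells of D11, 65.6% and 54.5% of floor plate-like cells of D28 and 64.8% and 60.8% of oligodendrocyte-lineage-like cells of D45 also had an STMN2 UMI. A stricter cut of 5 UMIs in cells of at least 2000 UMIs, added after seeing this, left 9.08% and 6.11% of such floor plate-like D28 cells positive. Of neurons in none of the subtype gates, the same cut left 66.2% and 77.3% positive in the D11 libraries, 80.3% and 71.4% in the D28 libraries and 52.4% and 53.5% in the D45 libraries, so that a larger share of them was on the negative side on D45; the part of this in the changes between days was not tested. Depth differed with the split, most in D28 library A, with a median of 6035 UMIs in positive and 1098 in negative cells, and in the D45 libraries, with 3592 against 1106.5 in A and 5672 against 1531.5 in B, and levels were therefore compared as CPM of summed counts.

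On D11 every member was lower in STMN2-positive cells: 0 of 7 were called higher and 7 lower, where 13.1% of 21663 tested genes were higher and 19.4% lower. LMX1A stood at 51.9 and 73.9 CPM in positive and 103 and 112 CPM in negative cells (log2 fold change -0.91, SE 0.09, adjusted p = 5.29e-05). FOXA1 stood at 122 and 155 against 222 and 241 CPM (-0.86, adjusted p = 0.00103), and FOXA2 at 65.7 and 78.2 against 99.8 and 114 CPM (-0.69, adjusted p = 0.000185). The positive libraries lay below the negative ones without overlap for these 3 genes. LMX1B (-0.82, adjusted p = 0.000521) and NR4A2 (-0.49, adjusted p = 0.000484) followed. EN1 (-0.66, adjusted p = 0.0155) and OTX2 (-0.41, adjusted p = 0.00829) were the least stable. EN1 was lost by DESeq2 and without the D11 library A. OTX2 was lost without any 1 of the D11 or D45 libraries and without the 10% of cells with most UMIs. TH was 5.18 and KCNJ6 4.55 higher in positive cells, and 5 of 10 postmitotic dopaminergic genes were higher and 0 lower. Of 8 floor plate and SHH genes, 6 were lower and 1, the SHH target GLI1, was higher (0.74, adjusted p = 0.00273). The positive side was still mixed, since 19.0% and 28.9% of the D11 cells of no class had an STMN2 UMI, besides the floor plate-like cells given above. With the cut of 5 UMIs, 0 members were higher and 7 lower, from -1.41 for NR4A2 to -3.43 for LMX1B, against 22.2% and 27.7% of all genes.

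On D28 members were called in both directions. The forkhead genes stayed lower in STMN2-positive cells: FOXA2 read 23.7 and 31.1 CPM in positive against 27.0 and 42.5 CPM in negative cells (-0.45, adjusted p = 0.00264). FOXA1 read 155 and 169 against 156 and 261 CPM (-0.44, adjusted p = 0.0264), so that library A showed nearly no gap before scaling, and the call was lost without library B (-0.10, adjusted p = 0.467). The LIM-homeodomain genes and EN1 had higher levels in positive cells. The share of cells with EN1 at 2000 UMIs was nearly equal in library A, at 7.61% in positive and 7.05% in negative cells. In library B it was 5.33% and 3.27%. LMX1A read 124 and 77.4 against 79.2 and 52.1 CPM (0.49, adjusted p = 0.00157), LMX1B 16.2 and 18.0 against 9.33 and 13.2 CPM (0.48, adjusted p = 0.00989), and EN1 57.9 and 36.8 against 39.8 and 16.7 CPM (0.71, adjusted p = 0.0106). The direction held within each library for these 3 genes, but LMX1B missed the threshold without the D28 library A (0.0956) and EN1 by DESeq2 and without the D28 library B (0.0724). OTX2 (0.06, adjusted p = 0.690) and NR4A2 (-0.15, adjusted p = 0.123) were not called, and both passed without the D28 library B (0.32 and -0.26, adjusted p = 0.0229 and 0.0139). This made 3 members higher and 2 lower, against 17.2% and 23.6% of all genes. With the cut of 5 UMIs there were again 3 higher and 2 lower, against 25.7% and 27.0%, with larger changes: -0.93 for FOXA1, -0.91 for FOXA2, 0.75 for LMX1A, 0.83 for LMX1B and 1.06 for EN1.

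On D45 LMX1A alone was called with all libraries, 1 member higher and 0 lower, against 15.1% and 15.8% of all genes. It read 26.4 and 47.0 CPM in STMN2-positive and 16.0 and 28.3 CPM in negative cells (0.69, SE 0.10, adjusted p = 0.00074). LMX1B (0.41, adjusted p = 0.0510) and EN1 (0.53, adjusted p = 0.0951) lay on the same side; LMX1B passed without either D28 library (0.0199 and 0.0310), and EN1 without either D28 library or the D45 library A (0.0240 to 0.0489). EN1 read 6.26 and 6.22 CPM in library A, no gap, and 23.0 and 12.1 CPM in library B. FOXA2 read 4.85 and 4.76 against 5.21 and 3.95 CPM (0.04, adjusted p = 0.855), and with the cut of 5 UMIs it turned to -0.36 (adjusted p = 0.0262). That cut gave 2 members higher, LMX1A (0.97) and LMX1B (0.86), and 1 lower, against 22.5% and 25.3% of all genes.

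The change of the STMN2 contrast between days was tested in the same model. Relative to D11 it was higher on D28 for 3 members and lower for 0, against 4.96% and 5.83% of all genes: LMX1A by 1.40 (adjusted p = 0.000177), LMX1B by 1.31 (adjusted p = 0.00124) and EN1 by 1.37 (adjusted p = 0.00768). On D45 it was higher than on D11 for 6 members and lower for 0, against 8.10% and 7.75% of all genes, led by LMX1A (1.59, adjusted p = 6.04e-05) and LMX1B (1.23, adjusted p = 0.00202). OTX2 was the exception, with 0.39 (adjusted p = 0.0971), and passed without either D28 library (0.00526 and 0.0414). Of the members that did not pass on D28, FOXA1 and OTX2 passed without the D28 library B (0.00231 and 0.00217), NR4A2 without the D28 library A (0.00640), and OTX2 by DESeq2 (0.0452). EN1 on D28 was lost without the D11 library A (0.0546), and the D45 changes of EN1, FOXA1, FOXA2 and NR4A2 were each lost without the D11 library A (0.115, 0.122, 0.0711 and 0.103) and without the D45 library B (0.344, 0.226, 0.183 and 0.170). EN1 on D45 was also lost by DESeq2 (0.0990), and FOXA1, FOXA2 and NR4A2 without the 10% of cells with most UMIs (0.0716, 0.0641 and 0.119) and with each cell scaled to 2000 UMIs (0.0839, 0.259 and 0.0663). FOXA1 was also lost without the D45 library A (0.103), and NR4A2 without the D45 library A (0.104) or the D11 library B (0.0636). With the cut of 5 UMIs all 7 members were higher on D28 (1.24 to 4.26, against 13.3% of genes higher and 11.5% lower) and on D45 (1.55 to 4.29, against 17.3% and 16.5%). A higher contrast is not by itself a higher level. At the cut of 1 UMI the mean CPM of every member fell on both sides of the split from D11 to D45. At the cut of 5 UMIs every mean fell in negative cells. In positive cells it rose for LMX1A (13.1 to 51.3 CPM), LMX1B (1.60 to 9.02) and NR4A2 (35.5 to 56.3), without overlap of libraries. The libraries overlapped for EN1 (13.4 and 22.2), FOXA1 (28.1 and 32.5) and OTX2 (16.3 and 16.8), and FOXA2 fell (23.5 to 4.24). Every call of a member in the STMN2 comparisons at the cut of 1 UMI needed the library as a block in the model.

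**Figure D4:**
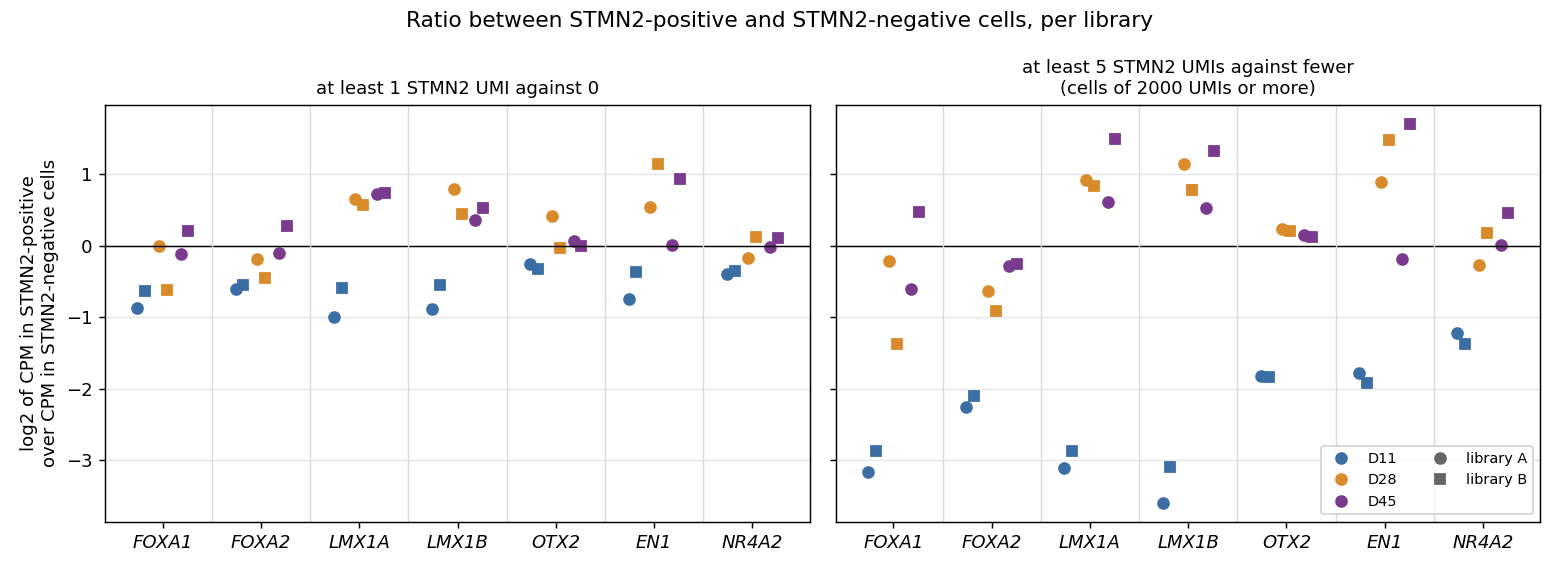
Log2 ratio of the CPM in STMN2-positive over that in STMN2-negative cells for each member and library, with the cut at 1 STMN2 UMI (left) and at 5 UMIs in cells of at least 2000 UMIs (right); colours are days, circles library A, squares library B. All D11 points lie below 0 in both panels, and all D28 and D45 points of LMX1A and LMX1B lie above 0.

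Single cells were last asked which members occurred together. The share of cells with both members of a pair was divided by the product of the 2 shares at 2000 UMIs per cell, so that 1 is what independent detection gives. On D11 FOXA2 and OTX2 were found together less than that, with a ratio of 0.282 and 0.413 in the 2 libraries (855 and 1248 cells with both before reduction), and also inside floor plate-like cells (0.416 and 0.482). OTX2 was not apart from all members: with LMX1A its D11 ratio was 1.44 and 1.86 in all cells and 2.59 and 2.63 in floor plate-like cells. FOXA2 and LMX1A were near 1 on D11 (1.07 and 0.899), under 1 within floor plate-like cells (0.711 and 0.709), 1.24 and 1.25 on D28, and 5.16 and 1.96 on D45, where 109 and 93 cells held both. LMX1A with EN1 gave 2.76 and 2.05 on D11, and LMX1A with LMX1B 2.10 and 1.56. These ratios describe cells of 1 library each and carry no p.

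On the later days the pattern of pairs was another. FOXA2 with OTX2 moved to 0.983 and 0.636 on D28 and 2.23 and 0.994 on D45, where it rested on 63 and 53 cells. FOXA1 with FOXA2 gave 1.57 and 1.32 at D11, 1.19 and 1.76 at D28, and 5.25 and 2.99 at D45. EN1 with NR4A2 gave 1.06 and 0.961 at D11, 1.62 and 2.10 at D28 and 1.78 and 2.30 at D45. Within the neuron classes of D28 FOXA2 with EN1 gave 3.47 and 3.33 and EN1 with NR4A2 gave 2.43 and 2.68. Cells in which none of the 7 was found made up 16.6% and 27.0% at D11, 35.8% and 39.7% at D28, and 72.1% and 59.1% at D45. Cells with all 7 numbered 78 and 84, 7 and 14, and 3 and 3. Their median depths of 13837 to 25076 UMIs lay above the medians of their libraries, and the part of depth in their number was not tested.

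**Figure D5:**
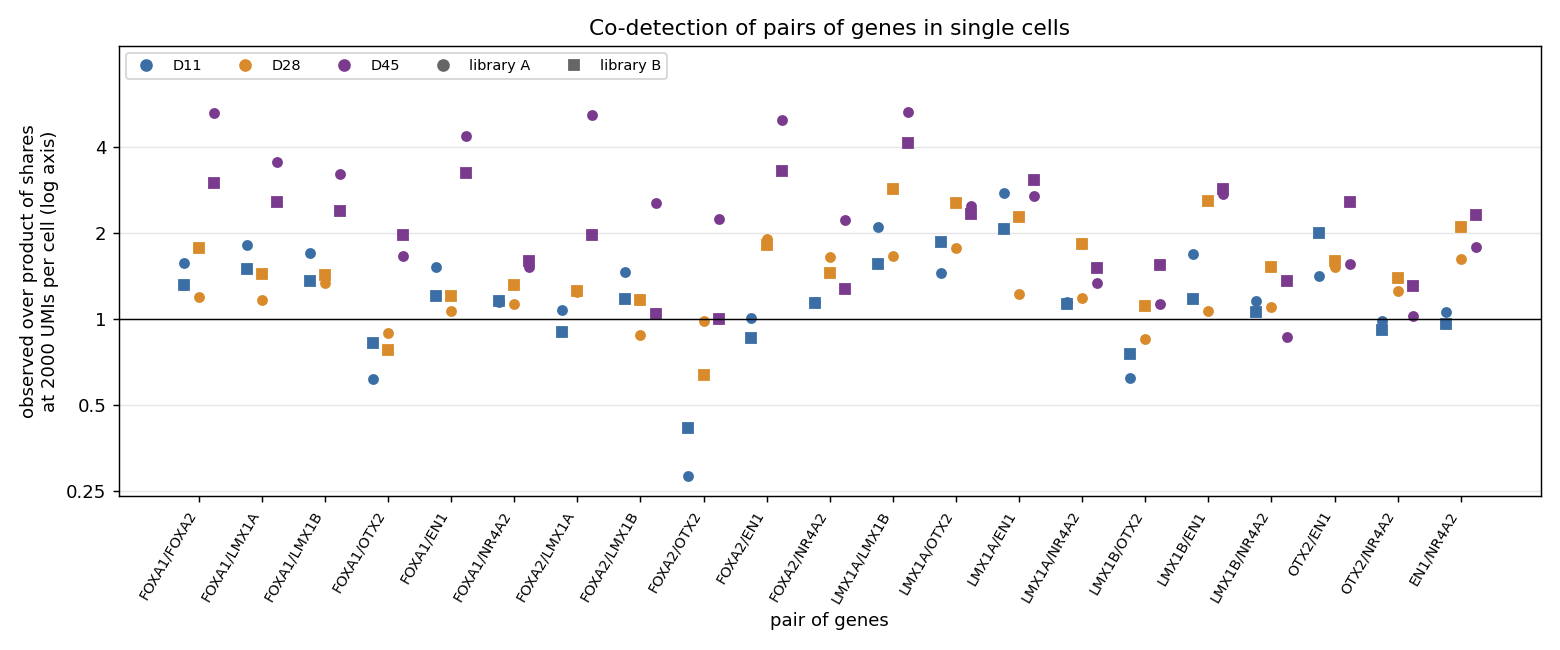
Share of cells with both genes over the product of the 2 shares at 2000 UMIs per cell (log axis), for the 21 pairs of members in all cells; colours are days, circles library A, squares library B. FOXA2 with OTX2 lies lowest on D11 (0.282 and 0.413), and the highest points are D45 pairs of few cells.

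The genes whose pattern was most like each member were found by Pearson's r of log2(CPM + 5) over 57 sums of a class and a library, among 10383 genes. The sums share libraries and depth, and r is a description. FOXA1 was most like TTC6 (r = 0.910), which lies 26730 bases from it on the opposite strand. OTX2 was most like OTX1 (0.832) and EN1 most like EN2 (0.843), each its paralog. LMX1A and LMX1B were close to each other (0.776), and LMX1A was most like FOXA1 (0.790). FOXA2 was most like FOXP4 (0.822), a forkhead gene, SLA-DQB1 (0.817) and A2M (0.814), and NR4A2 most like DMRTA1 (0.780) and DMRTA2 (0.690), a regulator of ventral midbrain progenitors. Among the members, FOXA2 was least like LMX1B (0.329) and OTX2 least like LMX1B (0.287).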

How the data were processed

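The libraries were 10x GEM-X 3' libraries, and the submitters' processing notes name Cell Ranger 8.0.1, Seurat 4.3.0 and the build Sscrofa11.1. The deposited files held raw UMI counts per gene and barcode for each of 6 libraries, with no annotation of cells, and all columns were used. Cells with 200 to 7000 genes and at most 10% UMIs from 13 mitochondrial genes were kept, the thresholds that the study states; slightly more cells were kept here than in the study, and the cause was not tested. No doublet caller was run and doublets were kept; an alternative left out the 10% of cells with most UMIs in each library. CPM are a gene's UMIs in counts per 1000000 UMIs of the summed library or class. Shares were also computed as the exact expectation at 2000 UMIs per cell (alternative 1000).

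Counts were summed per library, or per library and side of a split, and tested two-sided with edgeR 4.0.16 (quasi-likelihood, TMM, filterByExpr, threshold 0.05 after Benjamini-Hochberg adjustment over all tested genes) in R 4.3.3. The library was a block in the STMN2 and FOXA2 splits. DESeq2 1.42.0, other size factors, no count filter, the replicate number as a block, other cuts and depths, and leaving out each library were alternatives, and the cut of 5 STMN2 UMIs was added after seeing the data. The steps were tested on simulated data.

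A cell joined the class with the highest share of its markers detected, with at least 3 markers (2 for lists under 5), and ties had no class. The members, the 7 gene lists and the class markers were chosen with earlier results of these data known. Named genes were the 7 members, up to 2 rises and 2 falls per list past the threshold, and, for the FOXA2 split, the 5 largest rises and falls of at least 10 CPM with 1 direction in every library. For likeness they were taken from the 3 genes of highest Pearson r per member, among genes with at least 20 CPM in some class sum of at least 50 cells. A and B did not pair: deviations of same-lettered libraries correlated at -0.321, 0.048 and -0.195. Intervals are exact (Clopper-Pearson, 95%). Sequences are RefSeq, Sscrofa11.1. Some genes of the lists and markers are not reported here.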

Additional observations from a re-analysis of the deposited data

Results flagged for a closer look

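The difference between cells with at least 1 STMN2 UMI and cells with 0 changed between days for 6 members in a test of that change itself, edgeR's quasi-likelihood interaction of STMN2 group and day with Benjamini-Hochberg adjustment. From D11 to D28 the difference rose by 1.40 for LMX1A, 1.31 for LMX1B and 1.37 for EN1 on the log2 scale. From D11 to D45 it rose by 1.59 for LMX1A, 1.23 for LMX1B, 1.19 for EN1, 0.87 for FOXA1, 0.72 for FOXA2 and 0.49 for NR4A2. From D11 to D28 the mean level in positive cells rose for LMX1A (62.9 to 101 CPM), LMX1B (10.2 to 17.1) and EN1 (34.2 to 47.4, with overlapping libraries). In negative cells the means of these genes fell. At the cut of 5 UMIs the levels in positive cells did not all fall from D11 to D45, as given above. At the cut of 1 UMI the mean of every member fell on both sides from D11 to D45. The mean of FOXA1 went from 139 to 30.6 CPM in positive and from 231 to 28.9 CPM in negative cells. That of FOXA2 went from 72.0 to 4.81 CPM and from 107 to 4.58 CPM. The LMX1A and LMX1B values passed with any 1 library left out; the EN1 values and the D45 values of FOXA1, FOXA2 and NR4A2 did not, each being lost without at least 1 library. With the cut of 5 UMIs the change passed for all 7 members on both days, from 1.24 for NR4A2 to 4.26 for LMX1B on D28 and from 1.55 to 4.29 for the same genes on D45, with 3.85 and 4.08 for LMX1A. The STMN2 share of floor plate-like cells moved with the days, from 17.04% and 25.1% on D11 to 65.6% and 54.5% on D28 and 63.5% and 64.7% on D45, and its part in these values was not tested beyond the cut of 5 UMIs. The number of floor plate-like cells fell from 5844 and 7972 on D11 to 219 and 411 on D45, and its part was not tested.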

How the results depend on the processing

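Leaving out 1 library moved the number of genes called from 5132 to between 1106 and 10536 (D28 against D11), from 7695 to between 2797 and 12297 (D45 against D11) and from 2100 to between 0 and 10015 (D45 against D28), where the 0 arose without the D45 library A, with 3753 genes at an unadjusted p under 0.05, and DESeq2 called 4349 with all libraries. The number ranged from 2445 to 8532, 7102 to 8405 and 2929 to 8329 for the STMN2 split on D11, D28 and D45 (7042, 8821 and 6698 with all), from 814 to 3053 and 1115 to 5207 for its change to D28 and D45 (2337 and 3433), and from 471 to 1758 for the FOXA2 split (1662). With the replicate letter as a block, which the check of pairing did not call for, 3313 genes were called on D28 against D11 and 635 on D45 against D28, and the calls of NR4A2 (D45 against D11) and of LMX1A and LMX1B (D45 against D28) were lost. Without the library block the STMN2 splits gave 974, 1202 and 113 genes, their changes 95 and 251, and the FOXA2 split 538. Without the 10% of cells with most UMIs the D11 STMN2 split gave 4499 and the FOXA2 split 942. The cut of 2 STMN2 UMIs gave 3513 and 5817 for the changes to D28 and D45, and the cut of 5 gave 5176 and 7054 and reversed FOXA2 on D45 (-0.36). The cause of these moves was not tested. Reduction to 2000 UMIs moved 19 of 21 shares and to 1000 UMIs all 21, and co-detection at 1000 UMIs moved 11 of 63 ratios, and without reducing the cells to equal UMIs 47 of 63 moved. Depth limits the D45 values most, since 48.3% of the cells of 1 library had under 2000 UMIs, and with 2 libraries per day no change confined to 1 library can be told from its spread.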
